A study of Mus musculus with 40 samples.

Results

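A set of 10 genes whose products store, activate or sense TGF-beta were followed through 40 RNA-sequencing libraries of sorted mouse cells. They are the latent TGF-beta binding proteins Ltbp1, Ltbp2, Ltbp3 and Ltbp4, the milieu anchor Lrrc32, the integrin subunits Itgb6 and Itgb8, and the receptors Tgfbr1, Tgfbr2 and Tgfbr3. The set was picked by symbol, and each of the 10 symbols matched exactly 1 of the 45706 Ensembl genes in the table.

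TGF-beta leaves the cell as an inactive complex in which the growth factor is held by its own propeptide. LTBPs tie this latent complex to the extracellular matrix and LRRC32, also called GARP, ties it to the surface of cells such as regulatory T cells, endothelial cells and platelets, whereas integrins built with the beta6 or beta8 subunit pull on the propeptide or present it, so that the growth factor can act. Active TGF-beta is captured by TGFBR2, which recruits and phosphorylates TGFBR1 to start SMAD signaling, and TGFBR3, or betaglycan, is a coreceptor that presents the ligand.

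Neutrophils, monocytes, epithelial cells and stromal cells were sorted from colon tumors. Neutrophils and monocytes were also sorted from blood of tumor-bearing and of healthy mice, and epithelial and stromal cells from healthy colon, which gave 10 groups of 4 libraries. All tumor-bearing mice, and hence all their blood samples, carried Cdx2CreERT2 - Apc fl/fl on a background labelled C57Bl6/Sv129 in the first library, and had received 1 intraperitoneal injection of tamoxifen at 25 mg/kg when 8 to 10 weeks old. Cre was driven by the Cdx2 promoter, which is active in the intestinal epithelium. The healthy mice were C57Bl6 with neither transgene nor agent, so that tumor, genotype, strain and tamoxifen cannot be told apart in any comparison of tumor-bearing with healthy mice. Epithelial cells were gated as EpCAM+ CD45-, stromal cells as EpCAM- CD45-, neutrophils as Ly6G+ Ly6C-low and monocytes as Ly6G- Ly6C-high. The title of 1 blood neutrophil library of tumor-bearing mice and of 3 blood monocyte libraries of healthy mice named a pair of animals.

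Libraries held 10717873 to 38002939 counts on genes, and mitochondrial genes took 5.34 to 83.9% of them, the highest share being that of healthy epithelial replicate 4. Levels below are RPKM, reads scaled to gene length and library size, which can be compared between genes. Lists of cell type markers showed transcripts of other cell types in some sorted libraries, each list being summarised in a library by the median, over its genes, of RPKM as a percentage of the mean of a reference group. The 13 epithelial genes stood at 99.5, 49.2, 20.1 and 12.1% of tumor epithelium in tumor stromal replicates 1 to 4. They stood at 71.9, 13.8, 14.5 and 5.01% in tumor neutrophils, and at 0.531, 14.9, 2.91 and 3.59% in tumor monocytes. In tumor stroma the 10 fibroblast genes reached no more than 5.10% of healthy stroma, and the 8 endothelial genes reached 1.66 and 1.59% in replicates 1 and 2 but 110.1 and 99.5% in replicates 3 and 4. By their markers, the libraries labelled tumor stromal cells thus held few fibroblast transcripts, and replicates 3 and 4 held endothelial ones. The labels give number 3 to a pair of tumor stromal libraries, of which the second is called replicate 4 here. Some of the results that rest on tumor neutrophil replicate 1 or on tumor stromal replicates 1 and 2 are also given without them. Since these are bulk samples, fewer cells of a type and less RNA per cell cannot be told apart.

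The upstream sequences of Ltbp1, Ltbp3 and Ltbp4 are shown because these 3 genes rose together in tumor epithelium. The RefSeq promoter table used here (GRCm38.p6, the mm10 assembly) gave windows for 8 of the 10 genes, with 13 annotated starts. Each line below gives the 250 bases before a start, 5′ to 3′ on the strand of the gene, with matches to 4 short motifs in capitals, namely CAGACA, a SMAD binding element, GGGCGG, the GC box, TGAGTCA, the AP-1 site, and CTTTGA, a core TCF/LEF motif, each searched on both strands and allowed to overlap.
Ltbp1, first start, chr17:75005279-75005528, plus strand: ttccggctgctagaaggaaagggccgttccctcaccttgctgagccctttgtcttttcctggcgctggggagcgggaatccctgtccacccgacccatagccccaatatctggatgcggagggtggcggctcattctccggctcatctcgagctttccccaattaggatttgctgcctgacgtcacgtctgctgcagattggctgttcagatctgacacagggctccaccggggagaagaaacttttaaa
Ltbp1, second start, chr17:75178531-75178780, plus strand: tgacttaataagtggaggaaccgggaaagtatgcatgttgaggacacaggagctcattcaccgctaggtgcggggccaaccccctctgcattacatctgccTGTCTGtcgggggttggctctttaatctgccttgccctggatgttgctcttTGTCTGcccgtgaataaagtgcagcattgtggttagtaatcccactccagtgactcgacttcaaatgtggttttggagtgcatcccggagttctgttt
Ltbp3, chr19:5740650-5740899, plus strand: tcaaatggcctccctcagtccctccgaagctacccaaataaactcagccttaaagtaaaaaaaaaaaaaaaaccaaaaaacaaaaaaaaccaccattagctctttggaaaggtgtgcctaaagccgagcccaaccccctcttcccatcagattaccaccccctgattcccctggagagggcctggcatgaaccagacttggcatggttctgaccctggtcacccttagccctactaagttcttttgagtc
Ltbp4, farthest start, chr7:27337613-27337862, minus strand: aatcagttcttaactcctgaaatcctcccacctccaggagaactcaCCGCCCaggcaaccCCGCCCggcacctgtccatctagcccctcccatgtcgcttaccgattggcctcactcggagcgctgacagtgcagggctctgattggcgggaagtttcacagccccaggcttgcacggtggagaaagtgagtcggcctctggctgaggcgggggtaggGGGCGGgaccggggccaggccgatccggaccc
The second Ltbp1 window held 2 SMAD elements, both on the opposite strand, and the Ltbp4 window held 3 GC boxes, while the first Ltbp1 window and the Ltbp3 window held none of the 4 motifs. The windows of 2 further Ltbp4 starts held 5 and 7 GC boxes. CTTTGA and TGAGTCA were in none of the 13 windows of the 8 genes. Of 32851 RefSeq windows of this length, 17.1% held the SMAD element, 32.7% the GC box, 4.46% the AP-1 site and 13.8% the TCF/LEF core, so no motif was common to the 3 genes that rose, and these matches are a description of the letters only. The genes lie far apart, Ltbp1 on chromosome 17 (75005568 to 75392512 in GENCODE M21), Ltbp3 on chromosome 19 (5740904 to 5758532) and Ltbp4 on chromosome 7 (27305136 to 27337692). Ltbp2 overlaps an antisense RNA, Ltbp1 a processed pseudogene, and Tgfbr3 3 unverified genes on its own strand and a pseudogene. Since use of strand in counting was not stated, reads of these overlaps cannot be told apart.

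**Figure D1:**
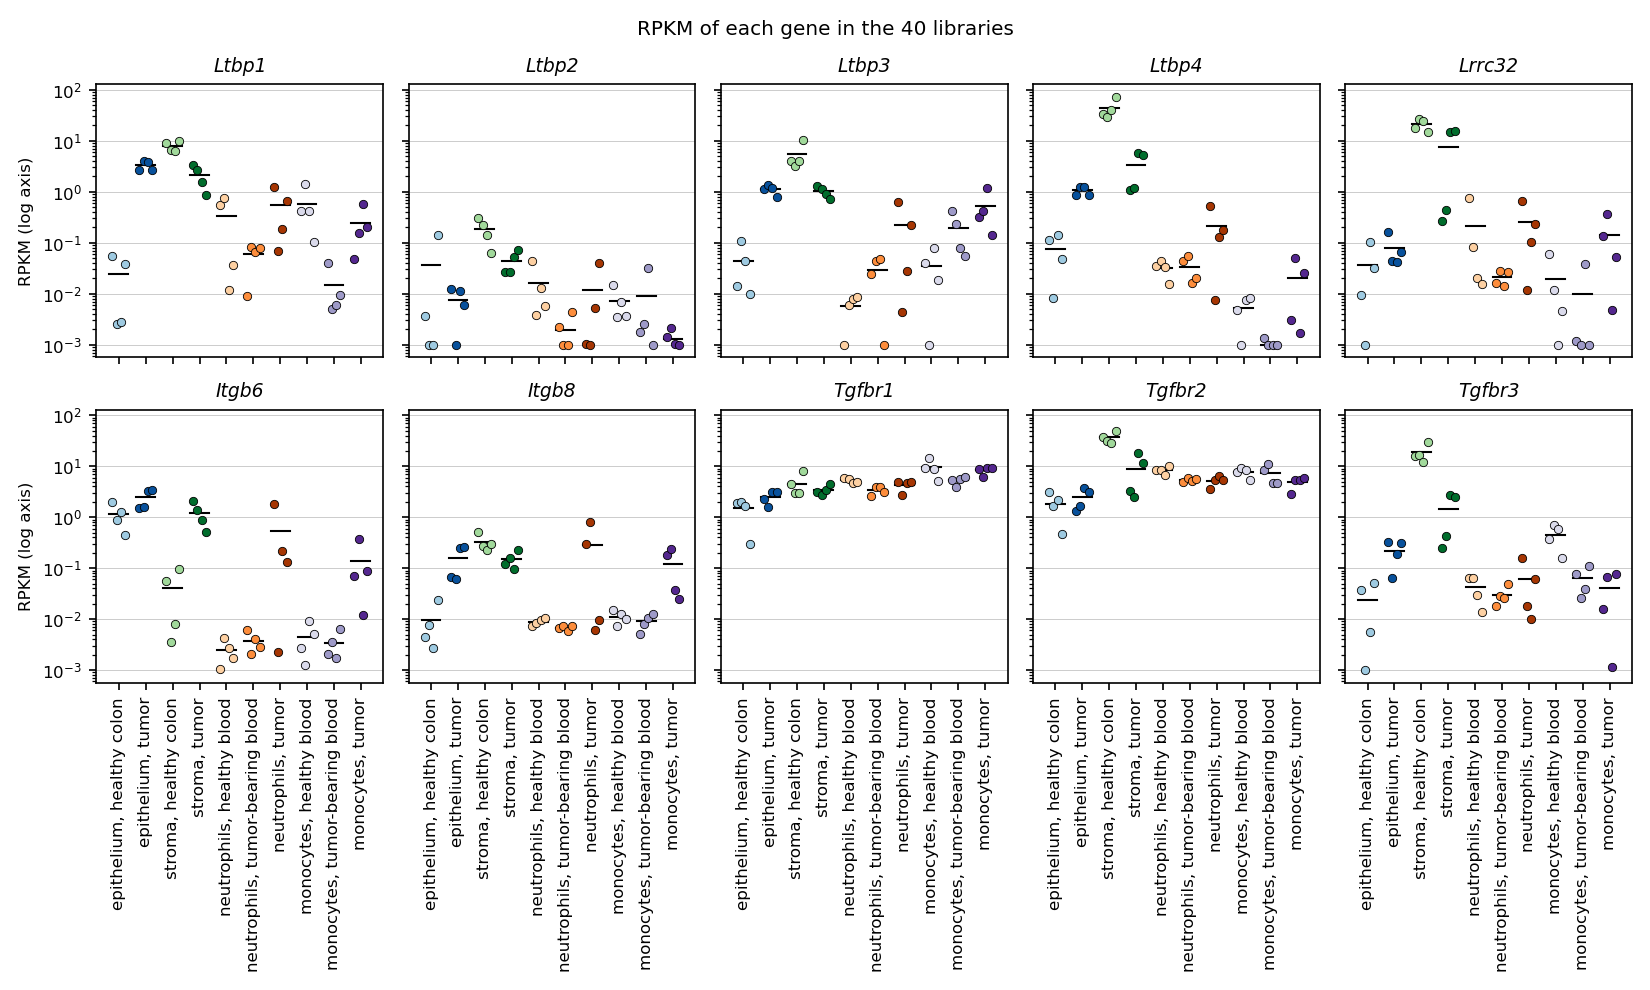
RPKM of the 10 genes (log axis) in the 4 libraries of each of 10 groups (points), with the mean of each group as a line; values under 0.001 are drawn at 0.001. Healthy colon stroma (light green) had the highest mean of 8 genes, Itgb6 was highest in tumor epithelium, and Tgfbr1 and Tgfbr2 were above 0.2 RPKM in every library.

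Healthy colon stroma expressed most of these genes at the highest level. It had the highest mean RPKM of 8 of the 10 genes, all but Itgb6 and Tgfbr1, although with TMM-scaled counts per library size (CPM) Ltbp2 was highest in healthy epithelium and Itgb8 in tumor neutrophils. How many of all genes were highest in healthy stroma was not counted. Mitochondrial genes took 15.6 to 24.9% of counts there and 48.6 to 83.9% in healthy epithelium, whose part in this order was not tested. Between healthy stroma and healthy epithelium 8 genes differed. Ltbp4, which supports elastic fibers as well as latent TGF-beta, was the most abundant of the LTBPs, with 32.8, 29.1, 39.8 and 72.6 RPKM in the 4 healthy stromal libraries against 0.111, 0.0083, 0.141 and 0.0472 in healthy epithelium. The lowest stromal library lay far above the highest epithelial one, and edgeR gave a log2 fold change of 7.98 (SE 0.93, adjusted p = 2.37e-04). Ltbp1 and Ltbp3 behaved alike at lower levels, with 7.91 ± 1.76 and 5.39 ± 3.31 RPKM (SD, n = 4) in stroma and log2 fold changes of 6.61 and 6.18 (edgeR adjusted p = 0.00263 and 1.15e-04). Lrrc32 showed 18.1, 26.8, 24.6 and 15.0 RPKM in healthy stroma and no more than 0.102 in healthy epithelium (log2 fold change 8.09, SE 1.09, edgeR adjusted p = 4.83e-04).

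The receptors differed in how unevenly they were spread. Tgfbr3 was at 16.1, 16.3, 12.3 and 30.5 RPKM in healthy stroma and at or under 0.0503 in healthy epithelium (log2 fold change 7.73, SE 1.37, edgeR adjusted p = 0.00193). Tgfbr2 was at 37.1, 31.6, 29.1 and 48.8 RPKM in stroma and at 3.06, 1.66, 2.18 and 0.458 in epithelium, a difference of 3.43 on the log2 scale (SE 0.36, adjusted p = 1.42e-04). Tgfbr1 was also higher in every stromal library, at 4.56 ± 2.34 against 1.48 ± 0.80 RPKM, but its log2 fold change of 0.82 (SE 0.35) did not pass the edgeR test (adjusted p = 0.0982). The ligand-binding receptor and the coreceptor were thus far more unequal between both cell types than the signaling partner Tgfbr1, although no test compared the genes with each other.

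The integrin subunits went in opposite directions in healthy colon. Itgb6, whose product pairs with alpha-v on epithelial cells, was at 2.02, 0.892, 1.27 and 0.450 RPKM in epithelium and at 0.0551, 0.0036, 0.0080 and 0.0950 in stroma. All epithelial libraries lay above all stromal ones, and Itgb6 was lower in stroma by a log2 fold change of -5.86 (SE 0.92, edgeR adjusted p = 0.00108). Itgb8 was higher in stroma (0.520, 0.267, 0.226 and 0.302 RPKM against at most 0.0239), with a log2 fold change of 3.04 (SE 1.04, adjusted p = 0.0441) that did not pass when any 1 of 7 of the 8 libraries was left out (adjusted p = 0.0628 to 0.117), the exception being epithelial replicate 4. Ltbp2 was scarce everywhere, with 0.305 RPKM as its highest value in any library, and did not differ here (log2 fold change -0.26, SE 1.68, edgeR adjusted p = 0.921). In all, 7 of the 10 genes were called higher and 1 lower in stroma. Of all 18468 genes tested 30.9% were called, 19.4% higher and 11.5% lower, where a call needs both an adjusted p under 0.05 (Benjamini-Hochberg) and a log2 change beyond 1.5 in either direction. The median log2 fold change was 4.80 over the 10 genes and 0.14 over all genes tested. Of 37 other genes of the pathway, 23 were called higher in stroma and 0 lower, with Tgfb2, a ligand, leading at 8.03 (SE 0.65, edgeR adjusted p = 4.07e-05).

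In tumor epithelium, 3 of the 5 storage genes rose over healthy epithelium. The milieu anchor Lrrc32 did not pass the test (log2 fold change 0.28, SE 1.1, edgeR adjusted p = 0.893), and Ltbp2, at means of 0.00761 RPKM in tumor and 0.0365 in healthy epithelium, was too low to be tested. Ltbp1 was at 0.0544, 0.0026, 0.0028 and 0.0376 RPKM in healthy epithelium and at 2.67, 4.07, 3.87 and 2.70 in tumor epithelium. No libraries overlapped, and Ltbp1 rose by 5.82 on the log2 scale (SE 1.04, edgeR adjusted p = 0.00258). Ltbp3 rose by 4.27 (SE 0.52, edgeR adjusted p = 2.87e-04), from 0.0140, 0.106, 0.0430 and 0.0101 RPKM to 1.12, 1.38, 1.17 and 0.793. Ltbp4 rose by 2.98 (SE 0.70, edgeR adjusted p = 0.0110), from 0.111, 0.0083, 0.141 and 0.0472 RPKM to 0.881, 1.25, 1.26 and 0.884. Both sets were again apart, and all 3 calls held when each of the 8 libraries was left out in turn.

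The other genes tested in epithelium did not pass either. Itgb6 was at 1.52, 1.61, 3.29 and 3.43 RPKM in tumor epithelium, which overlapped with healthy epithelium (log2 fold change 0.33, SE 0.36, edgeR adjusted p = 0.578). Itgb8 was higher in every tumor library (0.0662, 0.0612, 0.254 and 0.260 RPKM) than in any healthy one, with a log2 fold change of 2.19 (SE 1.05, adjusted p = 0.172). Tgfbr3 was likewise apart, at 0.222 ± 0.120 against 0.0235 ± 0.0244 RPKM (log2 fold change 1.56, SE 1.21, edgeR adjusted p = 0.408). Tgfbr1 and Tgfbr2 overlapped between both groups, with log2 fold changes of 0.25 (SE 0.24, edgeR adjusted p = 0.512) and -0.22 (SE 0.33, adjusted p = 0.691). Thus 3 of the 9 genes tested were called, all higher, against 15.4% of 16085 genes in either direction and 7.52% higher. The members' median was 1.56 and that of all genes -0.01. Of the 37 other pathway genes 30 were tested. Among these, 7 were called higher, namely Tgfb2, Fn1, Itgav, Bmp1, Mmp14, Bambi and Pmepa1, and Dcn was called lower.

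Some of those 7 genes act on the same latent complex. Tgfb2 rose by 7.14 (SE 0.60, edgeR adjusted p = 4.1e-05), from 0.0242, 0.0133, 0.0061 and 0.0007 RPKM to 2.22, 2.48, 1.72 and 2.12. Itgav, the alpha-v subunit that pairs with beta6 and beta8, rose by 1.56 (SE 0.21, edgeR adjusted p = 5.53e-04). Dcn, a matrix proteoglycan that binds TGF-beta, fell by 4.04 on the log2 scale (SE 1.07, edgeR adjusted p = 0.0210), at levels of 0.938 RPKM in healthy and 0.143 in tumor epithelium. In RPKM the typical gene was itself higher in tumor epithelium, by a median of 0.40 on the log2 scale over 5171 genes at 1 RPKM or more in both groups, so RPKM ratios and fitted changes differ somewhat. The 10 fibroblast genes stood at 0.0107 to 0.237% of healthy stroma in healthy epithelium and at 0.0467 to 0.170% in tumor epithelium. Platelet genes summed to no more than 1.13 RPKM in either. Endothelial genes summed to 0.279 to 0.498 RPKM in healthy and 4.49 to 4.96 in tumor epithelium, and erythroid genes to 0.485 to 15.8 and 21.9 to 62.9 RPKM. Both lists were thus higher in every tumor library than in any healthy one, and their part in the rise of the LTBPs was not tested.

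**Figure D2:**
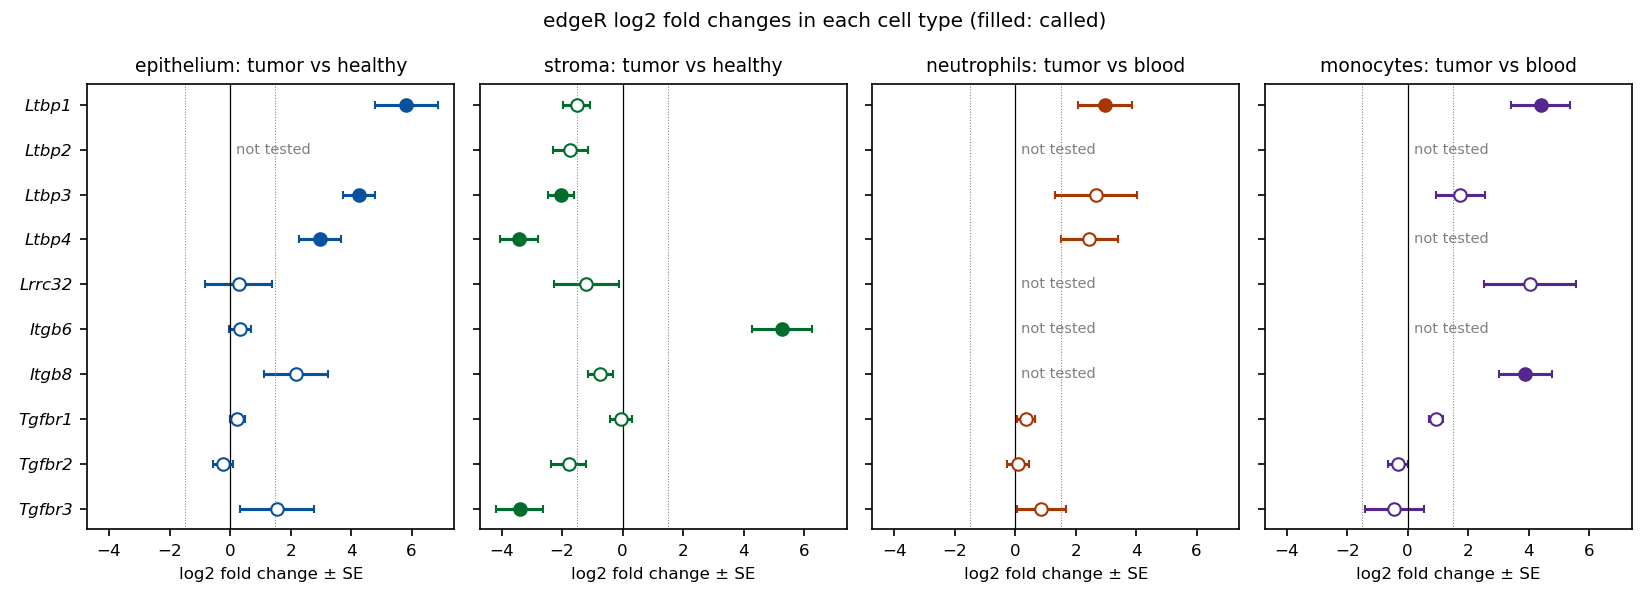
log2 fold change ± SE (edgeR) of the 10 genes in 4 comparisons within a cell type; filled points were called, open points were not, dotted lines mark the fold threshold of 1.5, and genes too low to be fitted are marked as not tested. Ltbp1 (5.82), Ltbp3 (4.27) and Ltbp4 (2.98) lie to the right in epithelium, and Ltbp3 (-2.03), Ltbp4 (-3.42) and Tgfbr3 (-3.40) lie to the left in stroma.

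In the stromal gate the same storage genes were lower in tumor. Ltbp4 was at 1.07, 1.19, 5.87 and 5.19 RPKM in tumor stroma, below all 4 healthy libraries, and fell by 3.42 on the log2 scale (SE 0.64, edgeR adjusted p = 0.0145). Ltbp3, at 1.28, 1.14, 0.919 and 0.734 RPKM against 4.09, 3.18, 3.98 and 10.3, fell by 2.03 (SE 0.44, edgeR adjusted p = 0.0249). That call did not hold without tumor stromal replicate 1 or 3 (adjusted p = 0.0509 and 0.0622), and without healthy stromal replicate 4 the log2 fold change was -1.47. Ltbp1, at 3.36, 2.61, 1.53 and 0.864 RPKM, was also below every healthy library, but its log2 fold change of -1.52 (SE 0.45) missed the test (edgeR adjusted p = 0.0655). Under other settings Ltbp1 was called lower with limma-voom (-1.71, adjusted p = 0.0380), DESeq2 (-1.51, adjusted p = 0.0145) and limma on both log2 RPKM scales. With the replicate number as a block it was not (-1.68, edgeR adjusted p = 0.133).

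The coreceptor Tgfbr3 fell by 3.40 (SE 0.77, edgeR adjusted p = 0.0280), from the healthy values above to 0.245, 0.422, 2.72 and 2.47 RPKM. Its call did not hold without tumor stromal replicate 2 or without healthy stromal replicate 1 or 2 (adjusted p = 0.0542 to 0.0610). Tgfbr2, at 3.22, 2.52, 17.9 and 11.5 RPKM, lay below all healthy libraries with a log2 fold change of -1.78 (SE 0.57, edgeR adjusted p = 0.0879), which became a call of -2.31 (adjusted p = 0.0483) without tumor stromal replicate 3. Without tumor stromal replicates 1 and 2 the Tgfbr2 change was smaller, at -1.05 (edgeR adjusted p = 0.113), and was not called. With all libraries Tgfbr2 was called lower by limma-voom (-2.12, adjusted p = 0.03975), DESeq2 (adjusted p = 0.0197) and limma on both log2 RPKM scales. It was not called by edgeR with the replicate number as a block (adjusted p = 0.118). For Tgfbr1 the groups overlapped (log2 fold change -0.06, SE 0.36, adjusted p = 0.939). Itgb6 was the 1 gene that rose, by 5.26 (SE 0.99, edgeR adjusted p = 0.0150), to 2.04, 1.40, 0.891 and 0.502 RPKM. Those 4 values are in the same order as the epithelial list in these libraries (99.5, 49.2, 20.1 and 12.1%), as are the values of Ltbp1 and Ltbp3, and the part of epithelial transcripts in these levels was not tested.

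Lrrc32 split the tumor stromal libraries, with 0.272 and 0.432 RPKM in replicates 1 and 2 and 14.6 and 15.4 in replicates 3 and 4. The latter pair lay next to healthy replicate 4 (15.0 RPKM), and over the group the log2 fold change was -1.19 (SE 1.08, edgeR adjusted p = 0.537). The endothelial list divided the libraries in the same way, at 1.66 and 1.59% against 110.1 and 99.5% of healthy stroma, and Tgfbr2, Tgfbr3 and Ltbp4 were also several times higher in replicates 3 and 4. Healthy stromal replicate 4 held 15.0 RPKM of Lrrc32 with the endothelial list at 16.5%, and fibroblast genes there were at 180.4%. Other measures split the tumor stromal libraries in the same way. In replicates 1 and 2 against 3 and 4, the neutrophil list was at 0.602 and 0.153% against 23.0 and 7.68% of its reference, and T cell genes summed to 0.615 and 0.624 RPKM against 8.32 and 13.1. Erythroid genes summed to 153.6 and 307.8 RPKM against 3542 and 1082, and mitochondrial genes took 55.4 and 62.9% of counts against 27.4 and 24.8%. The part of each of these in the levels was not tested. In all, 3 of the 10 genes were called lower and 1 higher, with 8.4% of 19081 genes called in either direction, 5.01% lower and 3.39% higher. The median log2 fold change was -1.62 over the 10 genes and 0.03 over all genes.

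Without tumor stromal replicates 1 and 2, which left replicates 3 and 4 against 4 healthy libraries, Ltbp3 (-2.43, adjusted p = 0.0463), Ltbp4 (-2.70, adjusted p = 0.0193), Tgfbr3 (-2.59, adjusted p = 0.0198) and Itgb6 (4.36, adjusted p = 0.0473) were still called by edgeR, and Ltbp1 joined them at -2.45 (adjusted p = 0.0121). Of the 37 other pathway genes 10 were called lower in tumor stroma and 0 higher. They were the ligand Tgfb3, the storage genes Fbn1, Fbn2, Emilin1, Dcn, Bgn and Fmod, and Itgb5, Bmp1 and Mmp2 of activation. The largest fall was that of Dcn, by 5.69 (SE 0.89, edgeR adjusted p = 0.00819), from 559.3 to 8.29 RPKM, and Dcn is itself among the fibroblast markers.

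The change from healthy colon to tumor differed between the stromal and the epithelial gates for 5 of the 10 genes, with 14.1% of 20901 genes called for such a difference. The difference, stromal minus epithelial change, was -7.27 for Ltbp1 (SE 1.27, edgeR adjusted p = 0.00147), -6.32 for Ltbp3 (SE 0.70, adjusted p = 6.27e-05) and -6.40 for Ltbp4 (SE 1.01, adjusted p = 7.4e-04). It was -5.10 for Tgfbr3 (SE 1.48, edgeR adjusted p = 0.0290) and 4.91 for Itgb6 (SE 1.00, adjusted p = 0.00397). Without tumor stromal replicates 1 and 2, Ltbp1 (-8.25), Ltbp3 (-6.73), Ltbp4 (-5.74) and Itgb6 (3.97) were still called by edgeR. The Tgfbr3 difference was not called without tumor stromal replicates 1 and 2 (-4.38, adjusted p = 0.0769), nor without any 1 of tumor stromal replicate 2, tumor epithelial replicates 1 and 4 and healthy epithelial replicates 1 and 3 (adjusted p = 0.0513 to 0.0592). Conversely, Itgb8 (-3.00, SE 1.17, adjusted p = 0.0983) was called without healthy epithelial replicate 4 (-5.26, adjusted p = 6.76e-04). In tumors, mean RPKM of Ltbp1 and Ltbp3 was then 3.33 and 1.12 in epithelium beside 2.09 and 1.02 in stroma, where in healthy colon stroma alone held them above 0.2 RPKM.

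Within tumors, the 4 sorted cell types differed in which of the genes they held. Expressed as a share of the summed mean RPKM of the 4 types, epithelium held 53.6% of Ltbp1, 38.9% of Ltbp3 and 56.6% of Itgb6. Stroma held 94.2% of Lrrc32, 81.9% of Tgfbr3, 71.8% of Ltbp4, 68.0% of Ltbp2 and 41.2% of Tgfbr2. Monocytes held 44.9% of Tgfbr1, and neutrophils held 39.7% of Itgb8. Leaving out 1 library moved that Itgb8 share between 19.7 and 46.6%, and without the 3 libraries rich in epithelial transcripts the Itgb6 share of epithelium was 72.1% and the Ltbp1 share 65.5%. These shares describe equal amounts of RNA from each type and not the tumor as a whole, since the numbers of cells were not used.

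**Figure D3:**
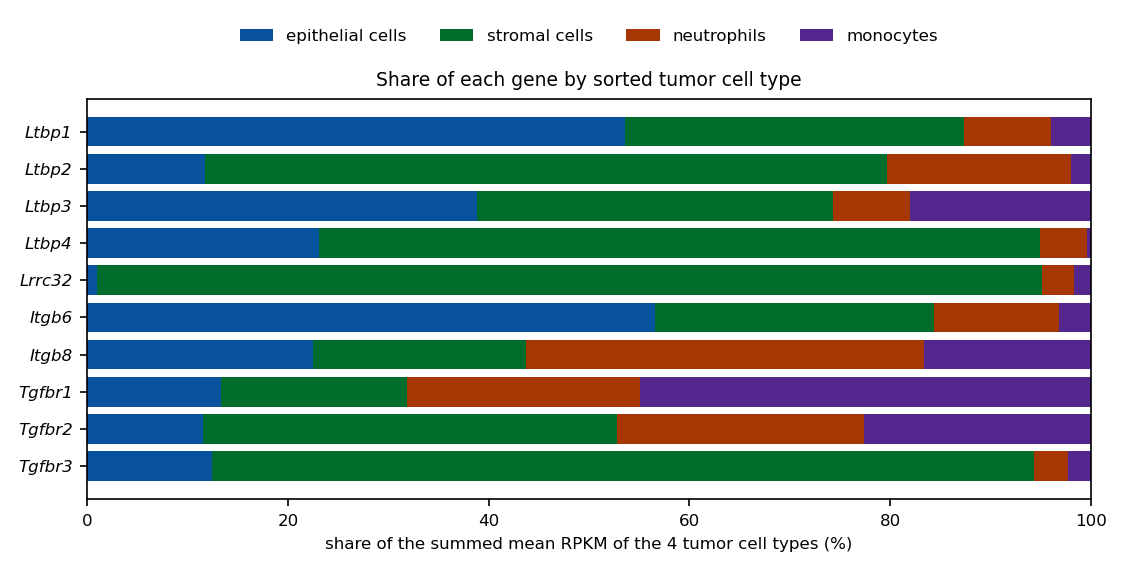
Mean RPKM of each gene in a tumor cell type as a percentage of the sum over the 4 sorted types (bars add to 100%). Stroma had the largest share of Lrrc32 (94.2%), Tgfbr3 (81.9%) and Ltbp4 (71.8%), epithelium of Ltbp1 (53.6%) and Itgb6 (56.6%), and monocytes of Tgfbr1 (44.9%). Between stroma and epithelium edgeR called only Lrrc32.

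The receptor genes Tgfbr1 and Tgfbr2 were expressed in all 8 tumor monocyte and neutrophil libraries, at 2.68 RPKM or more. Tgfbr1 was at 8.75, 6.23, 9.36 and 9.09 RPKM in tumor monocytes and at 4.98, 2.68, 4.71 and 4.96 in tumor neutrophils. Tumor epithelium, at 2.24, 1.56, 3.07 and 3.10 RPKM, lay below every monocyte library and overlapped with neutrophils. edgeR gave log2 fold changes of -1.98 for epithelium against monocytes (SE 0.28, adjusted p = 1.03e-04) and -1.63 against neutrophils (SE 0.27, adjusted p = 2.91e-04). Without tumor neutrophil replicate 2 the latter was -1.35, under the fold threshold, although its adjusted p was 0.00196. The change was also under that threshold with no filter (-1.38), without mitochondrial genes (-1.49) and with at least 10 counts in every library (-1.11). With limma on log2(RPKM + 1) it was -0.61, and on log2(RPKM + 0.1) -0.78. Against monocytes Tgfbr1 was lower in stroma as well (-1.54, SE 0.27, edgeR adjusted p = 0.00155), but that change fell under the fold threshold without tumor stromal replicate 1 (-1.45) or tumor monocyte replicate 3 (-1.46), and without the libraries rich in epithelial transcripts (-1.37). Monocytes and neutrophils of the tumor did not differ in the fit (0.35, SE 0.27, adjusted p = 0.389), although RPKM did not overlap, and the median gene was higher in monocytes by 0.27 in log2 RPKM.

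Tgfbr2 was at 3.60, 5.43, 6.52 and 5.38 RPKM in tumor neutrophils and at 2.87, 5.34, 5.33 and 5.76 in tumor monocytes. Epithelium, at 1.31, 1.66, 3.76 and 3.10 RPKM, was lower than neutrophils by a log2 fold change of -2.08 (SE 0.53, edgeR adjusted p = 0.00825), a call that was lost without tumor neutrophil replicate 2 (-1.53, adjusted p = 0.0516). The call was also lost with limma on log2(RPKM + 1) (-0.89, adjusted p = 0.111) and on log2(RPKM + 0.1) (-1.15, adjusted p = 0.0799). Tgfbr3, in contrast, was at most 0.156 RPKM in any tumor neutrophil or monocyte library. Stroma exceeded both, by 3.91 against neutrophils (SE 1.09, edgeR adjusted p = 0.0191) and 4.93 against monocytes (SE 1.14, adjusted p = 0.00675). Against epithelium Tgfbr2 was not called in stroma (1.82, SE 0.52, edgeR adjusted p = 0.0642), but it was without the libraries rich in epithelial transcripts (2.49, adjusted p = 1.83e-04). Stroma did not differ in Tgfbr2 from neutrophils (-0.26, SE 0.51, edgeR adjusted p = 0.742) or monocytes (0.58, SE 0.51, adjusted p = 0.453), and libraries overlapped in both cases. The Tgfbr3 call against neutrophils was lost without tumor stromal replicate 3 or tumor neutrophil replicate 3 (adjusted p = 0.0551 and 0.0566).

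Ltbp4 was called lower in tumor monocytes than in each of the other 3 tumor cell types. It was at 0.0030, 0.0511, 0.0017 and 0.0260 RPKM in tumor monocytes, below every stromal and epithelial library, with a log2 fold change of 7.03 for stroma (SE 1.08, edgeR adjusted p = 7e-04) and 5.49 for epithelium (SE 1.01, adjusted p = 8.91e-04). Tumor neutrophils, at 0.537, 0.0076, 0.132 and 0.181 RPKM, overlapped with monocytes, yet Ltbp4 was called lower in monocytes (-3.69, SE 0.94, edgeR adjusted p = 0.0166). That call was lost with limma-voom (adjusted p = 0.0721) and with limma on log2(RPKM + 1) (-0.23, adjusted p = 0.710) and on log2(RPKM + 0.1) (-1.12, adjusted p = 0.209). It was also lost with the replicate number or the animal as a block (edgeR adjusted p = 0.0540 and 0.146). Stroma was above neutrophils (3.34, SE 0.90, adjusted p = 0.0161), a call lost without tumor neutrophil replicate 3 (adjusted p = 0.0501). Ltbp1 was higher in epithelium than in monocytes (3.54, SE 0.77, edgeR adjusted p = 0.00271) and than in neutrophils (2.07, SE 0.72, adjusted p = 0.0461), but the second call was lost when any 1 of 11 of the 16 libraries was left out (adjusted p = 0.0528 to 0.123). Stroma exceeded monocytes in Ltbp1 by 2.83 (SE 0.75, edgeR adjusted p = 0.0132), and by 1.93 without the libraries rich in epithelial transcripts, where the call was lost (adjusted p = 0.125).

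Lrrc32 was higher in stroma than in epithelium (6.44, SE 1.47, edgeR adjusted p = 0.0193), neutrophils (4.29, SE 1.33, adjusted p = 0.0325) and monocytes (5.49, SE 1.41, adjusted p = 0.0113). The first 2 calls each depended on single libraries, being lost without any 1 of 5 of the 16 (adjusted p = 0.0552 to 0.0780 against epithelium, without stromal replicates 3 or 4 or epithelial replicates 2, 3 or 4, and 0.0592 to 0.0916 against neutrophils, without stromal replicates 3 or 4 or neutrophil replicates 2, 3 or 4). Without the libraries rich in epithelial transcripts all 3 were larger, at 7.37, 6.01 and 6.46 (edgeR adjusted p = 9.82e-04, 0.00574 and 0.00247). Ltbp2 had at most 1 count in any tumor monocyte library and a mean of 0.0441 RPKM in stroma, at least 6.81-fold above what 3 counts per monocyte library would give. It was called higher there (edgeR adjusted p = 0.0234), though not without tumor monocyte replicate 3 or 4 (adjusted p = 0.0611 and 0.0667).

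Itgb6 was higher in tumor epithelium than in monocytes by 3.95 (SE 1.13, edgeR adjusted p = 0.0142), but not called against neutrophils (1.74, SE 1.03, adjusted p = 0.216). The neutrophil libraries held 1.83, 0.0023, 0.217 and 0.131 RPKM of Itgb6, and the epithelial list in them was at 71.9, 13.8, 14.5 and 5.01%, so replicate 1 was highest in both. Itgb8 showed another pattern, at 0.300, 0.817, 0.0061 and 0.0097 RPKM in neutrophils and 0.178, 0.234, 0.0367 and 0.0243 in monocytes. In either type replicates 1 and 2 lay well above 3 and 4. In the neutrophils, replicates 1 and 2 also had the higher mitochondrial shares, at 37.5, 33.2, 18.1 and 17% of counts, and the lower levels of the neutrophil list, at 17.7, 80.3, 177.1 and 171.0%, whose part was not tested. No comparison of tumor cell types called Itgb8.

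Counting over the 6 comparisons of tumor cell types, stroma against epithelium called 1 of the 10 genes (4.09% of all 19026 genes tested), stroma against neutrophils 3 (16.1%) and stroma against monocytes 6 (20.3%). Epithelium against neutrophils called 3 (21.6%), epithelium against monocytes 4 (29%) and monocytes against neutrophils 1 (13.8%). These comparisons share libraries. With the animal named in the library titles as a block, stroma against neutrophils called 0 of the 10 genes and 0 of all genes, stroma against monocytes 1, Ltbp4 (6.94, edgeR adjusted p = 0.0410), and monocytes against neutrophils 0. In that fit Lrrc32 was not called between stroma and epithelium (5.97, adjusted p = 0.117) while Tgfbr2 was (2.59, adjusted p = 0.0329), and epithelium lost Itgb6 against monocytes (adjusted p = 0.0895) and Ltbp1 against neutrophils (adjusted p = 0.159). Other pathway genes differed along with them. Mmp9, a protease that can release TGF-beta, was at 6.81, 45.5, 52.8 and 61.6 RPKM in tumor neutrophils and at most 0.112 in tumor monocytes (log2 fold change -10.53, SE 1.45, edgeR adjusted p = 4.98e-04). Nrros, which anchors latent TGF-beta on myeloid cells in the way LRRC32 does elsewhere, was at 10.3, 17.3, 17.2 and 14.4 RPKM in tumor monocytes, 3.88, 6.18, 9.53 and 9.03 in neutrophils, and lower in stroma than in either (-3.69 against monocytes, SE 0.76, edgeR adjusted p = 0.00346, and -3.36 against neutrophils, SE 0.74, adjusted p = 0.00504). Tgfb1 was at 17.4, 14.5, 13.1 and 27.5 RPKM in tumor monocytes and was called higher there than in each of the other 3 tumor types.

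Between blood and tumor, few of these genes changed in neutrophils. Ltbp1 was at 0.0092, 0.0820, 0.0671 and 0.0806 RPKM in blood neutrophils of tumor-bearing mice and at 1.25, 0.0686, 0.189 and 0.660 in tumor neutrophils. The groups overlapped through tumor replicate 2, and Ltbp1 was called higher in tumor (2.98, SE 0.90, edgeR adjusted p = 0.0421). That call was lost without tumor neutrophil replicate 1 (2.34, adjusted p = 0.114), without replicate 4, and without any 1 of the 4 blood libraries (adjusted p = 0.0811 to 0.0896). Tgfbr1 and Tgfbr2 overlapped between blood and tumor, with log2 fold changes of 0.36 (SE 0.29, edgeR adjusted p = 0.437) and 0.10 (SE 0.35, adjusted p = 0.878). Of the 10 genes 6 were abundant enough to be tested and 1 was called, a share close to the 16.3% of 13674 genes called in either direction, and their median was 1.66 beside 0.11 for all genes. Of the 37 other pathway genes 32 were tested, and 9 were called higher and 1 lower in tumor. Pmepa1, a TGF-beta target that dampens the pathway, led with 6.07 (SE 1.06, edgeR adjusted p = 0.00347), and Itgb3 was the gene that fell, by 2.18 (SE 0.52, adjusted p = 0.0167).

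Monocytes showed a rise of Ltbp1 as well. It was at 0.0394, 0.0051, 0.0061 and 0.0093 RPKM in blood of tumor-bearing mice and at 0.0490, 0.154, 0.583 and 0.204 in tumor, without overlap, and rose by 4.39 (SE 0.99, edgeR adjusted p = 0.0124). Itgb8 rose by 3.89 (SE 0.88, edgeR adjusted p = 0.0127) from 0.0051, 0.0082, 0.0107 and 0.0125 RPKM, levels of 4 to 8 counts per library, to the tumor values above. The epithelial list stood at 0.108 to 0.399% in the blood libraries and at 0.531 to 14.9% in the tumor libraries, and its part in these rises was not tested. Both genes kept their calls in each of the 8 fits that left out 1 library.

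Tgfbr1 was higher in all 4 tumor monocyte libraries than in any blood library (5.34, 3.99, 5.55 and 6.19 RPKM in blood), with a log2 fold change of 0.93 (SE 0.23, edgeR adjusted p = 0.0201) that stayed under the fold threshold. Tgfbr2 did not follow, at -0.32 (SE 0.33, adjusted p = 0.548). Lrrc32 gave 4.05 (SE 1.52, edgeR adjusted p = 0.0966) from 0 to 8 counts in blood, and was called without blood monocyte replicate 3 (8.17, adjusted p = 0.0370). In all 2 of 7 genes tested were called, both higher, with 11.7% of 15280 genes called in either direction and 7.76% higher, and medians of 1.74 and -0.03. Of the 37 other pathway genes 31 were tested, and 7 were called higher and 1 lower. Pmepa1 was first at 8.28 (SE 0.48, edgeR adjusted p = 5.39e-06), and Emilin1, a matrix inhibitor of TGF-beta maturation, was lower at -2.06 (SE 0.52, adjusted p = 0.0214). A direct test compared the blood-to-tumor change of neutrophils with that of monocytes, and none of the 9 genes tested was called (edgeR, 690 of 17465 genes or 3.95%), none had an unadjusted p under 0.05, and DESeq2 called 0 as well.

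In blood, 0 of 5 genes tested were called between tumor-bearing and healthy mice, in neutrophils as in monocytes, by edgeR (4.01 and 0.209% of all genes called). Tgfbr1 and Tgfbr2 were nonetheless lower in every neutrophil library of tumor-bearing mice, at 3.38 ± 0.62 against 5.27 ± 0.63 and 5.31 ± 0.45 against 8.38 ± 1.39 RPKM (SD, n = 4). Their log2 fold changes were -0.59 (SE 0.19, edgeR adjusted p = 0.0894) and -0.62 (SE 0.18, adjusted p = 0.0632), with unadjusted p of 0.00955 and 0.00507 in this fit over all genes. In monocytes Ltbp1 was at 0.417, 1.40, 0.427 and 0.104 RPKM in healthy mice against the low values of tumor-bearing mice above (log2 fold change -5.24, SE 0.96, edgeR adjusted p = 0.0773), and Tgfbr3 at 0.370, 0.697, 0.592 and 0.159 against 0.0785, 0.0259, 0.0383 and 0.109 (-2.76, SE 0.62, adjusted p = 0.119). Both were apart between the groups, with unadjusted p of 2.57e-04 and 0.00114 in this fit. At an unadjusted p under 0.05, 2 of the 5 genes passed in neutrophils, as did 2931 of all 13360 genes tested, and 4 of the 5 in monocytes, as did 1507 of 15313. DESeq2 called 2 of the genes in monocytes, where it called 261 of all genes, and 0 in neutrophils, and edgeR called Ltbp1 without healthy replicate 4 (-5.57, adjusted p = 0.0454).

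Platelet transcripts differed between these blood libraries. The 7 platelet genes summed to 111.1, 108.8, 116.4 and 1.75 RPKM in healthy monocytes, 25.4, 37.8, 1.51 and 5.15 in monocytes of tumor-bearing mice, 226.0, 231.2, 2.27 and 10.6 in healthy neutrophils and 2.73, 24.7, 40.8 and 42.4 in neutrophils of tumor-bearing mice. Healthy neutrophils held 0.541, 0.751, 0.0118 and 0.0362 RPKM of Ltbp1, so the 2 libraries with most platelet RNA were also the 2 highest in Ltbp1 and in Lrrc32 (0.746, 0.0837, 0.0202 and 0.0156 RPKM). Erythroid genes were high in the same 2 libraries, at 330.3, 458.2, 3.82 and 7.45 RPKM. Among healthy monocytes the library with least platelet RNA, at 1.75 RPKM, also held the least Ltbp1. Monocytes did not follow this order throughout. Replicate 2 of tumor-bearing mice had the most platelet RNA of its group and the lowest Ltbp1 (0.0051 RPKM), and healthy replicate 3, with 116.4 RPKM of platelet genes, held no count of Lrrc32. Without the 5 libraries above 100 RPKM of platelet genes, a step chosen after the data were seen, Ltbp1 in monocytes was at -2.86 with an adjusted p of 1.0 (edgeR, 1 healthy library left, taken to vary like the others). The part of platelet RNA was not tested further.

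Between the blood cell types, Tgfbr3 was higher in monocytes than in neutrophils of healthy mice, by 2.70 (SE 0.60, edgeR adjusted p = 0.00444), with no overlap, while without the platelet-rich libraries, which left 1 monocyte against 2 neutrophil libraries, the value was 2.08 (adjusted p = 0.0939). Tgfbr2 was lower in these monocytes (-0.93, SE 0.21, adjusted p = 0.00424), under the fold threshold. In tumor-bearing mice, Ltbp1 was lower in blood monocytes than in neutrophils (-2.79, SE 0.88, edgeR adjusted p = 0.0213), and this call was lost without monocyte replicate 3 or 4 or neutrophil replicate 4 (adjusted p = 0.0532 to 0.0604). These were 1 of 4 and 1 of 5 genes tested, beside 37.1 and 38% of all genes. Mmp9 and Fn1 were the pathway genes that differed most, Mmp9 at -9.69 and -9.21 and Fn1, the matrix fibronectin to which LTBPs bind, at 7.78 and 10.43 in healthy and tumor-bearing mice.

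**Figure D4:**
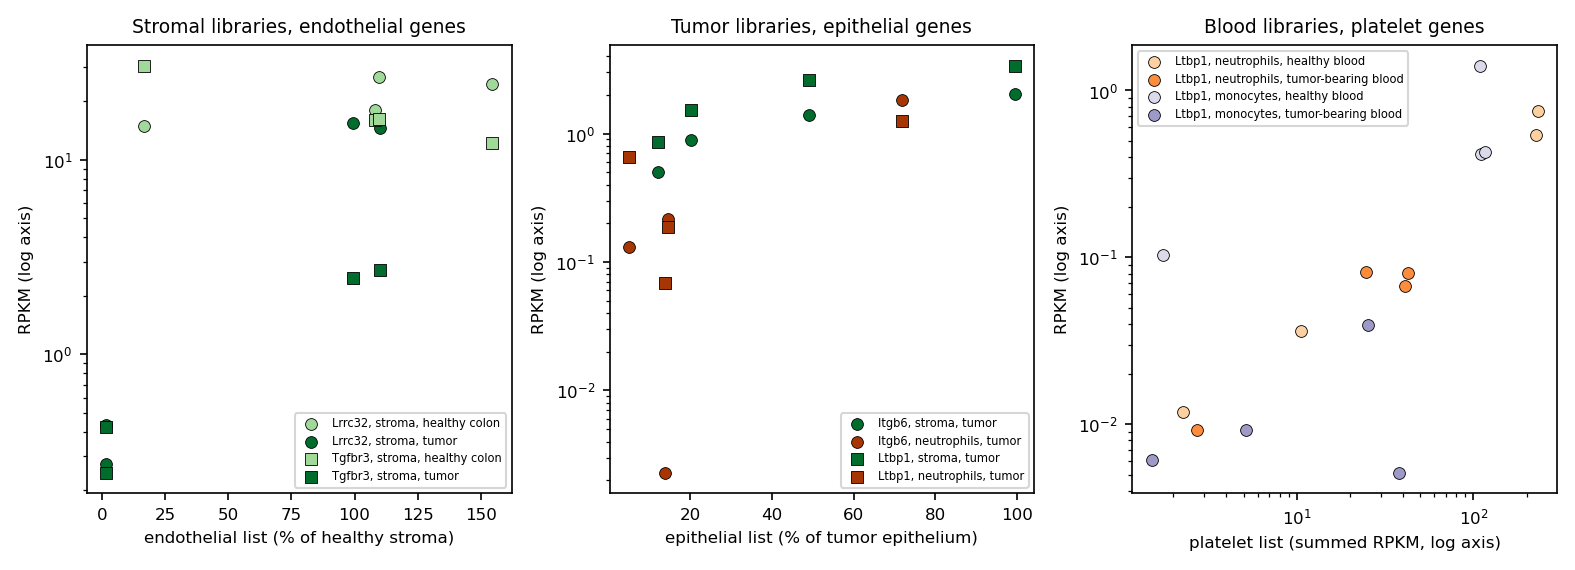
RPKM of 4 of the genes (vertical log axes) beside the level of a marker list in the same library, as a percentage of its reference group (left, middle) or as summed RPKM on a log axis (right): Lrrc32 and Tgfbr3 against endothelial genes in 8 stromal libraries (left), Itgb6 and Ltbp1 against epithelial genes in 8 tumor stromal and neutrophil libraries (middle), and Ltbp1 against platelet genes in 16 blood libraries (right). Tumor stromal libraries at 1.66 and 1.59% of endothelial genes held under 0.5 RPKM of Lrrc32, and the 5 blood libraries above 100 RPKM of platelet genes held 0.417 to 1.40 RPKM of Ltbp1.

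Over all 10 groups, the order of levels was clear for a few genes and blurred for most. Healthy stroma was apart from the next group for Ltbp1 (7.91 against 3.33 RPKM in tumor epithelium), Ltbp3, Ltbp4, Tgfbr2 and Tgfbr3. For Lrrc32 it overlapped with tumor stroma, and for Itgb6 tumor epithelium (2.46 ± 1.04 RPKM) overlapped with tumor stroma and healthy epithelium. Tgfbr1 led in healthy blood monocytes (9.46 ± 3.99 RPKM), which overlapped with tumor monocytes (8.36 ± 1.44). With TMM-scaled CPM, tumor monocytes led instead. Tumor monocytes lay above healthy blood neutrophils (5.27 ± 0.63 RPKM), the next group, and from there down each group overlapped with the next, to 1.48 ± 0.80 RPKM in healthy epithelium. Tgfbr1 and Tgfbr2 were detected in every library, with at least 191 counts each.

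Genes whose group means followed a member most closely are given by Pearson's r over the 10 groups on log2(RPKM + 0.1), among 13958 genes reaching 1 RPKM in some group. These points share libraries, their cell type makeup and their depth, so r is a description. Lrrc32 was followed by Robo4, Cav1 and Ptprb (r = 0.995, 0.993 and 0.993), Itgb6 by Ripk4 and Gm11597 (0.996 each), and Ltbp4 by Pcdhga12, Fam13c and Prickle1 (0.996 each). Tgfbr3 was closest to Arhgap28, Sulf1 and Gm37452 (r = 0.996, 0.988 and 0.985), and Ltbp3 to Lcat, Fgf2 and Plagl1 (0.99, 0.972 and 0.967). For Ltbp1 the closest were Nlgn2, Pcp4l1 and Cald1 (r = 0.972, 0.963 and 0.959), for Tgfbr2 Daam2, Polg2 and She (0.940, 0.936 and 0.935) and for Tgfbr1 Lamtor3, Hmox2 and Tgfb1 (0.968, 0.950 and 0.949). With a pseudocount of 1 instead, 7 of the 24 genes ranked in this way were again among the closest 3.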

How the data were processed

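RNA of sorted cells was amplified before sequencing. The authors mapped reads to mm10 with Bowtie2 and deposited estimated counts (expected counts, not whole numbers) per Ensembl gene. They also deposited RPKM, 1 column per library, which the authors scaled to gene length and library size. Annotation release, multi-mapping reads and strand are not given in the sources used here. Nothing beyond the animals in the titles says whether libraries are separate animals, so p-values measure the spread between libraries.

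Counts were rounded and tested with edgeR 4.0.16 in R 4.3.3 (TMM, filterByExpr, robust quasi-likelihood, Benjamini-Hochberg over all genes tested). A gene was called at an adjusted p under 0.05 and a log2 change beyond 1.5 in either direction, as in the study. The fits were tested on simulated data. Alternatives were limma 3.58.1 (voom, or log2 RPKM with pseudocounts of 0.1 and 1), DESeq2 1.42.0, other filters, blocks and libraries left out. Leaving out blood libraries above 100 RPKM of platelet genes was chosen after seeing the data.

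The 10 genes and the lists were chosen with earlier results of these data known. Named are the 10 genes, Tgfb1, Tgfb2, Tgfb3, Nrros, Itgav and Mmp9, the called pathway gene with the largest change per direction, and the 3 genes most like each member. Other pathway genes are named after their values were seen, to list those called. Some items of these rankings and annotations are not reported here.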

Additional observations from a re-analysis of the deposited data

Results flagged for a closer look

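In 5 of the 57 gene and group combinations tested (mean of at least 0.1 RPKM), 1 library stood apart from the other 3 by Dixon's criterion, which chance alone meets in about 1 of 20 groups. Itgb6 was at 1.83 RPKM in tumor neutrophil replicate 1, the neutrophil library with most epithelial transcripts. Lrrc32 was at 0.746 RPKM in healthy blood neutrophil replicate 1. Ltbp3 was at 10.3 RPKM in healthy stromal replicate 4, which also held most fibroblast transcripts. Low values were those of Tgfbr1 in tumor neutrophil replicate 2, at 2.68 RPKM, and of Tgfbr2 in tumor monocyte replicate 1, at 2.87 RPKM.

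For 5 genes the change from healthy colon to tumor differed between stromal and epithelial cells by a test of that difference. On the log2 scale, as stromal minus epithelial change, it was -7.27 for Ltbp1, -6.32 for Ltbp3, -6.40 for Ltbp4, -5.10 for Tgfbr3 and 4.91 for Itgb6.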

How the results depend on the processing

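No called single-gene value changed sign under the settings tried. Of single-gene results under other settings 1179 kept their side of the threshold, 129 lost it and 39 gained it, and counts of called genes were within 1.5 times in 304 cases and not in 85. Counts below are of the 10 genes. In the rest of this paragraph they are given only for comparisons whose count was not within 1.5 times. Comparisons that were at 0 and stayed there are thus left out. With limma-voom the count was 0 for tumor against blood neutrophils, stroma against epithelium and monocytes against neutrophils of tumors, and 5 for tumor against healthy epithelium and tumor epithelium against neutrophils. DESeq2 called 2 for tumor against blood neutrophils, for blood monocytes of tumor-bearing against healthy mice and for tumor monocytes against neutrophils, 7 for tumor against healthy stroma, 3 for tumor stroma against epithelium and 5 for tumor epithelium against neutrophils. With no filter 2 genes were called in tumor against blood neutrophils and in blood monocytes against neutrophils in healthy and in tumor-bearing mice. With no fold threshold it was 2 for the latter in healthy mice. A minimum of 10 counts in every library, which tests fewer genes, gave 0 in 9 comparisons, 1 for healthy stroma against epithelium and for tumor stroma against monocytes, and 2 for tumor epithelium against monocytes. limma on log2(RPKM + 1) gave 0 in 6 comparisons, 1 for tumor against healthy epithelium and for tumor epithelium against neutrophils, and 2 for tumor stroma or epithelium against monocytes. With a pseudocount of 0.1 it gave 0 in 5 comparisons and 5 for tumor stroma against neutrophils. Without the libraries rich in epithelial transcripts the count was 0 for tumor against blood neutrophils, 3 for tumor stroma against epithelium and 6 for tumor epithelium against neutrophils, and without platelet-rich libraries 0 for healthy blood monocytes against neutrophils.

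Leaving out 1 library gave 0 to 4 calls for tumor against blood neutrophils, 2 to 4 for monocytes, 0 to 0 and 0 to 1 for blood neutrophils and monocytes of tumor-bearing against healthy mice, 3 to 4 for epithelium and for stroma, 1 to 3 and 0 to 1 for blood monocytes against neutrophils in healthy and tumor-bearing mice, and 7 to 9 for healthy stroma against epithelium. Within tumors it gave 0 to 2 for stroma against epithelium, 0 to 4 against neutrophils and 4 to 7 against monocytes, 0 to 5 and 4 to 4 for epithelium against neutrophils and monocytes, and 1 to 2 for monocytes against neutrophils. For the differences of changes it gave 0 to 0 from blood and 4 to 6 from healthy colon.

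In no fit did every same-numbered pair correlate above 0.1, and titles name the same animal for some same-numbered pairs only. The animal block was fitted for the tumor cell types alone, so animals shared by title in other comparisons were not blocked. With the replicate block the count was 0 for tumor against blood neutrophils, blood monocytes against neutrophils of tumor-bearing mice, tumor stroma against epithelium and tumor monocytes against neutrophils, and 1 for tumor against blood monocytes, tumor against healthy stroma and tumor stroma against neutrophils. In blood monocytes of tumor-bearing against healthy mice each library correlated best with its own number, and the count stayed at 0. With the animal as a block, counts were 0 for tumor stroma or monocytes against neutrophils and 1 for stroma against monocytes.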
